A study of Rattus norvegicus with 50 samples.

Results

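The BMP-SMAD genes around hepcidin control are 8 genes, Id1, Id2, Id3, Smad6, Smad7, Bmp2, Bmp6 and Tmprss6, chosen by symbol and followed through all 10 groups of rat livers. All 8 were measured, each by 1 probe, among 14506 genes with a symbol. The livers came from 50 male Sprague Dawley rats about 3 months old, 5 in each group and 1 array per animal, on the Affymetrix Rat Gene 1.0 ST platform. Of the injured animals, 3 groups had received erythropoietin (EPO, Procrit, 2500 IU/kg), 3 anakinra (Kineret, an antagonist of the interleukin-1 receptor, 100 mg/kg) and 3 saline vehicle, and each drug has livers of 3 times after injury, namely 24 h, 72 h and 7 days. The injury, carried by every animal except the intact shams, was a controlled cortical impact (CCI), a model of traumatic brain injury. The 5 sham rats had no injury and no stated drug, and they belong to no time point, so each comparison with sham uses the same 5 livers. The sources used here do not state when or how often the drugs were dosed. Values are log2 RMA intensities, so a difference of 1 is a doubling of the array signal.

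Bone morphogenetic proteins (BMPs) are secreted ligands that bind receptors on hepatocytes and lead to phosphorylation of SMAD1, SMAD5 and SMAD8, which enter the nucleus with SMAD4 and raise transcription of Hamp, the gene of hepcidin. Hepcidin blocks the release of iron into plasma by its exporter ferroportin. In the liver, BMP6 and BMP2 come mainly from sinusoidal endothelial cells, and the protease TMPRSS6 lowers the signal by cleaving the co-receptor hemojuvelin. Id1, Id2, Id3, Smad6 and Smad7 are transcribed in response to the same SMADs, so their transcripts are widely read as a measure of BMP signalling. Erythropoietin raises red cell production, and erythroblasts then release erythroferrone, which is known to bind BMP ligands and lower hepcidin. The comparison asks whether these target genes were lower where Hamp was lower under EPO.

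Promoters are shown for Hamp, for the 2 members that passed a test below, Smad7 and Id2, and for Id1, the usual index of BMP signalling. Each runs 5′ to 3′ in the direction of the gene, from 250 bases before the annotated start to 50 after it, and comes from RefSeq on the rat build GRCr8, which held a promoter for 6 of these 9 genes. Capitals mark 3 motifs searched on both strands. The SMAD1 and SMAD5 element is GGCGCC. The SMAD box is GTCTG, which reads CAGAC on the other strand. The STAT element is TTCNNNGAA.
Hamp promoter, chr1:95300222-95300521, minus strand: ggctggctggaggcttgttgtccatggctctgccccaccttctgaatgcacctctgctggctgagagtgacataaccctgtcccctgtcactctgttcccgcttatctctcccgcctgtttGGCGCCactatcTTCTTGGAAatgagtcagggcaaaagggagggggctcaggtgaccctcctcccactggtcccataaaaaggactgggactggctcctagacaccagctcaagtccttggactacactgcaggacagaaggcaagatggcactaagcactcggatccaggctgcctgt
Smad7 promoter, chr18:71263258-71263557, plus strand: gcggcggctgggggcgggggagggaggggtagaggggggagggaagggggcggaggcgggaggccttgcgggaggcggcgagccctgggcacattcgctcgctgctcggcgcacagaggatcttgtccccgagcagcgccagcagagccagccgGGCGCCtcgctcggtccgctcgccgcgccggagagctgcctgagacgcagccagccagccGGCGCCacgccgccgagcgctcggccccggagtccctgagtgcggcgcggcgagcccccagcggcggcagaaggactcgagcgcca
Id2 promoter, chr6:47470946-47471245, minus strand: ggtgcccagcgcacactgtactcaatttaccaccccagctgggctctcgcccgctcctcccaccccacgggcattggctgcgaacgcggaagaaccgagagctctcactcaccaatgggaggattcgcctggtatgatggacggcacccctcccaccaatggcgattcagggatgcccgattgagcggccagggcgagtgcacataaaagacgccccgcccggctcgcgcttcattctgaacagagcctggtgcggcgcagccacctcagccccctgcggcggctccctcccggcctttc
Id1 promoter, chr3:161671314-161671613, plus strand: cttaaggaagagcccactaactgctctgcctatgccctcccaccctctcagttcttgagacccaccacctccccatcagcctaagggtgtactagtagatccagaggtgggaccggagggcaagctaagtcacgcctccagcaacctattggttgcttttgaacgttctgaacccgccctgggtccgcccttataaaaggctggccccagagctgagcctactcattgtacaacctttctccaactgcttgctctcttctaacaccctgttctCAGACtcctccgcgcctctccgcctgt
The Hamp window held GGCGCC 129 bases before the start and TTCNNNGAA 117 bases before it. The Smad7 window held GGCGCC at 96 and at 36 bases before the start. Id1 held CAGAC after its start, and none of the motifs was found in these windows of Id2, Id3 or Bmp6. Of all 33469 rat promoters of this length, 11.0% held GGCGCC, 50.1% held GTCTG on either strand and 8.87% held TTCNNNGAA. No matches overlapped. These are letters in a window and say nothing of binding.

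The measurement of Hamp in these livers sets the scale. Hamp read 7.60, 8.92, 7.07, 8.32 and 9.16 in the EPO livers at 72 h, against 12.89, 12.78, 11.55, 13.16 and 9.67 in the vehicle livers at 72 h. At 7 days it read 7.20, 7.08, 7.46, 7.54 and 7.26 in EPO livers, against 12.99, 12.95, 13.34, 13.02 and 12.56 in vehicle livers. All EPO livers lay below all vehicle livers at both times, and 1 vehicle liver at 72 h, replicate 5, was low with no EPO. The differences were -1.80 at 24 h (SE 0.44, limma adjusted p = 0.189), -3.80 at 72 h (adjusted p = 4.67e-08) and -5.66 at 7 days (adjusted p = 6.58e-13). Between the lowest and the highest group mean Hamp spanned 5.77 log2. The 8 genes spanned far less, with 0.18 for Tmprss6, 0.20 for Id1, 0.26 for Bmp6, 0.29 for Smad6, 0.39 for Bmp2, 0.45 for Id3, 0.53 for Smad7 and 0.71 for Id2. The plot of all arrays shows the steep fall of Hamp beside the narrow ranges of the other genes.

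**Figure D1:**
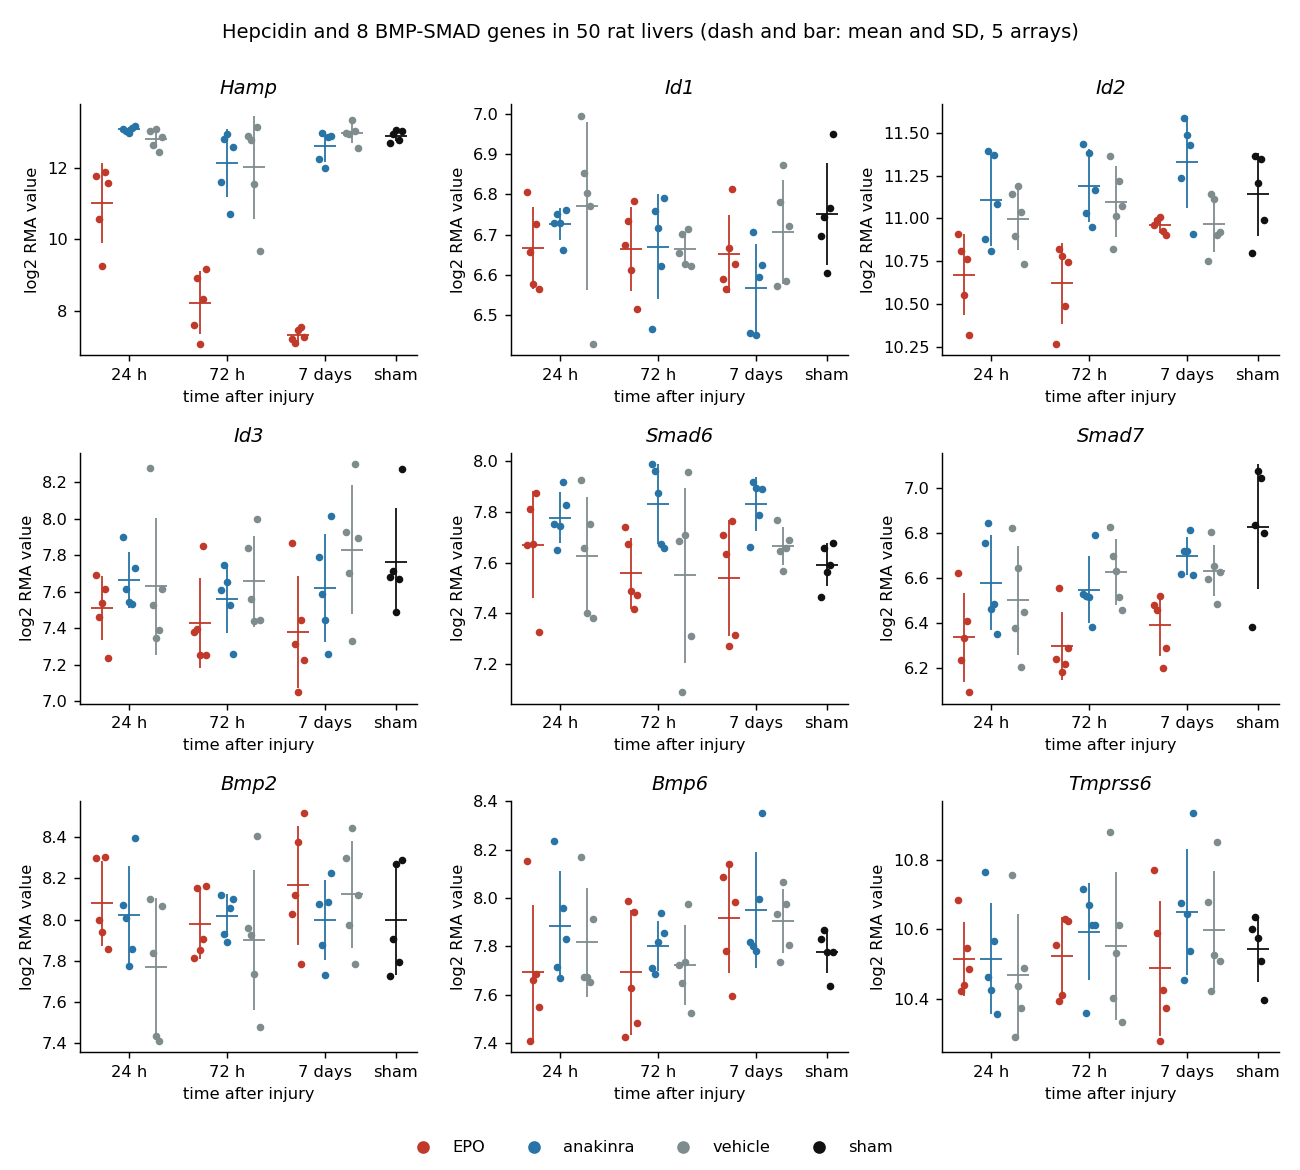
Log2 RMA value of Hamp and the 8 BMP-SMAD genes (vertical axes, different scale in each panel) in 50 livers by time after injury, with EPO, anakinra and vehicle side by side and sham at the right; points are arrays, dashes and bars the mean and SD of 5 arrays. Hamp falls in EPO livers to a mean of 7.31 at 7 days, while the group means of Id1 stay within 0.20 log2.

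Set against vehicle at the same time, 0 of the 8 genes passed at 24 h, 1 passed at 72 h (Id2, lower) and 0 passed at 7 days, at an adjusted p under 0.05 over all genes. Of all genes, 0.0276% passed at 24 h, 2.72% at 72 h (0.545% lower) and 0.365% at 7 days. At an unadjusted p under 0.05, 2 of the 8 passed at each of the 3 times, against 10.8%, 20% and 4.97% of all genes, so the count at 72 h was near that of all genes. The median difference of the 8 was -0.11, -0.03 and -0.08 log2 at the 3 times, and that of all genes -0.02, -0.03 and -0.00. In the mean of the 3 times, 2 of 8 passed, Id2 and Smad7, both lower, against 2.41% of all genes (0.517% lower). The plot of differences from vehicle gives each gene with its interval.

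**Figure D2:**
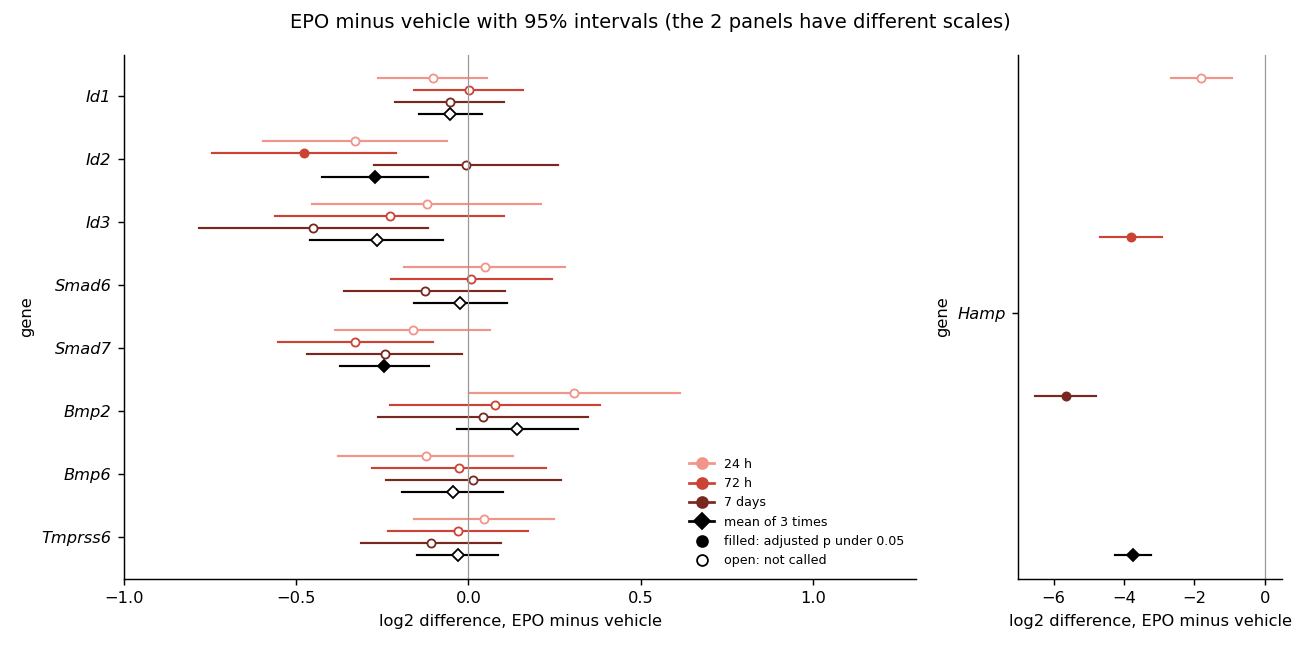
Difference in log2 RMA value, EPO minus vehicle (horizontal axis), with 95% intervals for each gene at 24 h, 72 h, 7 days and in the mean of the 3 times; filled symbols had an adjusted p under 0.05. Of the 8 genes, Id2 at 72 h and Id2 and Smad7 in the mean are filled, and Hamp in the right panel, on a wider scale, is filled at 72 h, at 7 days and in the mean.

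Id2 encodes an inhibitor of basic helix-loop-helix transcription factors. At 72 h it read 10.27, 10.82, 10.78, 10.49 and 10.75 in EPO livers, against 11.37, 10.82, 11.01, 11.22 and 11.07 in vehicle livers. Every EPO liver was below every vehicle liver, with the closest pair both reading 10.82. The mean was 10.62 ± 0.24 in EPO and 11.10 ± 0.21 in vehicle livers (SD, n = 5 each), 1.39-fold lower, a difference of -0.48 log2 (SE 0.13, limma adjusted p = 0.0341). The exact two-sided permutation test gave p = 0.00794, the smallest that 5 against 5 allows. The call ended without vehicle replicate 1 (adjusted p = 0.122), 4 (0.0511) or 5 (0.0519) at 72 h, and without EPO replicate 1 (0.0565) or 4 (0.0923) at 72 h.

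At 24 h Id2 read 10.91, 10.81, 10.55, 10.76 and 10.32 in EPO livers, against 11.14, 10.90, 11.19, 11.04 and 10.73 in vehicle livers. The groups overlapped, and the difference of -0.33 (SE 0.13) did not pass (limma adjusted p = 0.442). At 7 days Id2 read 10.96, 10.99, 11.01, 10.93 and 10.90 in EPO livers, against 10.75, 11.14, 11.11, 10.90 and 10.92 in vehicle livers. The EPO livers lay inside the vehicle range there, with a difference of -0.01 (95% interval -0.27 to 0.26), at the time when Hamp was lowest. Whether the EPO difference of Id2 changed between times did not pass over all genes (limma F test, adjusted p = 0.586). Averaged over the 3 times, Id2 was lower, with a difference of -0.27 log2 (SE 0.08, limma adjusted p = 0.0434). That call ended in 14 of the 30 fits that left out 1 array (adjusted p up to 0.0862), those without EPO replicates 3 or 5 at 24 h, 4 at 72 h or 1, 2 or 5 at 7 days, and without vehicle replicates 1, 3 or 4 at 24 h, 1 or 5 at 72 h or 2, 3 or 4 at 7 days.

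Id2 was also lower than in the anakinra livers at 72 h, which read 11.44, 11.03, 11.38, 10.95 and 11.17. All 5 EPO livers lay below all 5 anakinra livers, with a difference of -0.57 (SE 0.13, limma adjusted p = 0.00803). This call held whichever array was left out, with adjusted p-values up to 0.0455. Of the 8 genes, Id2 alone passed in EPO minus anakinra at 72 h, where 1.94% of all genes passed (0.2% lower). None of the 8 passed by limma at 24 h or 7 days, where 0.0207% and 0.441% of all genes did. Unadjusted, 2 and 3 of the 8 had a p under 0.05 there, against 1.69% and 6.58% of all genes. Set against sham, Id2 passed at 72 h alone (-0.52, adjusted p = 0.0142). Its values were -0.47 at 24 h (adjusted p = 0.116) and -0.18 a week after injury (adjusted p = 0.489). Without sham replicate 2 (0.0692) or 4 (0.0542), or EPO replicate 1 at 72 h (0.0561), the 72 h call ended.

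Smad7 encodes an inhibitory SMAD that blocks the receptors, and it is itself a target of the pathway. At 24 h it read 6.62, 6.24, 6.33, 6.41 and 6.09 in EPO livers, against 6.82, 6.38, 6.65, 6.21 and 6.45 in vehicle livers. At 72 h it read 6.24, 6.56, 6.18, 6.22 and 6.29 in EPO livers, against 6.83, 6.70, 6.63, 6.52 and 6.46 in vehicle livers. At 7 days the values were 6.48, 6.46, 6.52, 6.20 and 6.29 in EPO livers, against 6.60, 6.80, 6.65, 6.49 and 6.62 in vehicle livers. At both later times 4 of 5 EPO livers were below all vehicle livers. The differences were -0.16 (SE 0.11), -0.33 and -0.24 log2 at the 3 times, with limma adjusted p-values of 0.540, 0.104 and 0.973. The exact permutation test gave p = 0.278, p = 0.0238 and p = 0.0159, unadjusted. In the mean of the 3 times Smad7 was 1.18-fold lower, a difference of -0.24 log2 (SE 0.06, limma adjusted p = 0.0282). That call ended in 4 of 30 fits that left out 1 array, those without vehicle replicate 1 (0.0586) or 2 (0.0505) at 72 h, vehicle replicate 3 at 24 h (0.0563) or EPO replicate 5 at 24 h (0.0567).

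Against sham the Smad7 difference passed at all 3 times. Sham livers read 6.38, 6.84, 7.07, 7.05 and 6.80, so that 4 of them lay above every EPO liver of any time and replicate 1 lay among the EPO livers. The difference was -0.49 for EPO livers at 24 h (SE 0.11, limma adjusted p = 0.0271), -0.53 for those at 72 h (adjusted p = 0.00201) and -0.44 for those at 7 days (adjusted p = 0.0224). The 72 h call held whichever array was left out, with adjusted p-values up to 0.0151. The 24 h call ended without any of sham replicates 2 to 5 or EPO replicates 2, 3 or 5 (up to 0.135), and the 7 day call without sham replicate 2, 3 or 4 or EPO replicate 4 or 5 (up to 0.0919). Vehicle minus sham was -0.33, -0.20 and -0.19 for Smad7 at the 3 times, which did not pass (adjusted p = 0.159, 0.424 and 0.772). Without sham replicate 1 the 24 h value passed (-0.44, adjusted p = 0.0411). The comparisons of EPO with vehicle and with sham share the EPO livers, and all comparisons with sham share the same sham livers. Smad7 had a mean of 6.54 over all arrays, below the median of all gene means of 7.23, and the table used here holds no detection call.

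In EPO minus sham, Smad7 was thus the single gene of the 8 to pass at 24 h and at 7 days, and Id2 and Smad7 were the 2 that passed at 72 h. The shares of all genes called, in order of time, were 0.434% (0.152% lower), 3.46% (0.717% lower) and 2.86% (1.63% lower). At 72 h all 8 differences had a negative sign, against 55.3% of all genes, and 6 of them did not pass. In vehicle minus sham at 72 h, with the same sham livers, 7 of 8 were negative, against 40.5% of all genes. At 72 h it was 5 of 8 in EPO minus vehicle, against 55.8%, and 8 of 8 in EPO minus anakinra, against 54.1%.

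Id3, another inhibitor of basic helix-loop-helix factors, did not pass in any comparison. At 7 days it read 7.87, 7.32, 7.05, 7.44 and 7.23 in EPO livers, against 7.93, 7.70, 7.33, 8.30 and 7.89 in vehicle livers. EPO replicates 1 and 4 lay inside the vehicle range, and 3 of 5 EPO livers lay below it. The difference was -0.45 log2 (SE 0.17, limma adjusted p = 0.641). At 72 h Id3 read 7.38, 7.40, 7.25, 7.85 and 7.25 in EPO livers, against 7.84, 7.56, 7.44, 8.0 and 7.45 in vehicle livers, a difference of -0.23 (adjusted p = 0.428). The mean over the 3 times was -0.27 (SE 0.10, adjusted p = 0.116), the same size as that of Id2 with a wider within-group spread, 0.27 log2 against 0.22.

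Id1 did not pass in any comparison either. At 72 h it read 6.67, 6.73, 6.61, 6.78 and 6.52 in EPO livers, against 6.65, 6.70, 6.63, 6.71 and 6.62 in vehicle livers. The vehicle range lay inside the EPO range, and the difference was 0.00 (95% interval -0.16 to 0.16). The mean over the 3 times was -0.05 (95% interval -0.14 to 0.04, limma adjusted p = 0.505). Like Smad7, Id1 lay below the median of gene means, at 6.68. Smad6, the second inhibitory SMAD, averaged 7.67, 7.56 and 7.54 in EPO livers at 24 h, 72 h and 7 days, against 7.62, 7.55 and 7.66 in vehicle livers. Its mean difference was -0.02 (95% interval -0.16 to 0.11).

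The ligands did not pass. Bmp6, the iron-regulated BMP of the liver endothelium, averaged 7.69, 7.69 and 7.92 in EPO livers at the 3 times, against 7.82, 7.72 and 7.90 in vehicle livers. Its mean difference was -0.05 (95% interval -0.19 to 0.10). Bmp2 read 8.30, 8.0, 7.94, 8.30 and 7.86 in EPO livers at 24 h, against 8.10, 7.84, 7.44, 7.41 and 8.07 in vehicle livers. The EPO livers overlapped the upper vehicle livers, and the difference of 0.31 (SE 0.15) had a limma adjusted p = 0.459. Its mean over the 3 times was 0.14 (95% interval -0.03 to 0.32). Tmprss6, the inhibitor that acts on hemojuvelin, averaged 10.51, 10.52 and 10.49 in EPO livers, against 10.47, 10.55 and 10.60 in vehicle livers, with a mean difference of -0.03 (95% interval -0.15 to 0.09).

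Injury and anakinra gave no call among the 8 genes. In vehicle minus sham 0 of 8 passed by limma at each time, where 0.827%, 0% and 0% of all genes passed at 24 h, 72 h and 7 days. At an unadjusted p under 0.05 it was 1, 0 and 0 of the 8, against 15.9%, 12.1% and 6.52% of all genes. In anakinra minus vehicle 0 of 8 passed by limma at each time, where 0%, 0% and 0.0138% of all genes did. Unadjusted, 0, 1 and 1 of the 8 had a p under 0.05, against 4.25%, 10.7% and 7.62% of all genes. In the mean of the 3 times it was 0 of 8 and 0.0551%, with 2 of 8 and 21.4% of all genes at an unadjusted p under 0.05. In anakinra minus sham it was 0 of 8 by limma against 0.193%, 0.11% and 1.83% of all genes. Unadjusted, 1, 2 and 2 of the 8 had a p under 0.05, against 6.28%, 5.78% and 14.1% of all genes. Smad6 averaged 7.78, 7.83 and 7.83 in anakinra livers, against 7.62, 7.55 and 7.66 in vehicle livers, a mean difference of 0.20 (SE 0.07, limma adjusted p = 0.148). Id2 at 7 days read 11.24, 11.59, 11.49, 11.43 and 10.91 in anakinra livers, of which 4 lay above all vehicle livers (0.37, SE 0.13, adjusted p = 0.506). None of the 8 passed the limma F test of whether the EPO difference changed between the 3 times, which 0.214% of all genes passed, Hamp among them (adjusted p = 0.00120). At an unadjusted p under 0.05 it was 1 of the 8, Id2, against 8.47% of all genes.

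The group means of each gene were compared with those of Hamp, as a description over 10 groups. Pearson's r with Hamp was 0.86 for Id3, 0.74 for Smad7, 0.59 for Id2, 0.53 for Smad6, 0.40 for Tmprss6, 0.34 for Id1, 0.17 for Bmp6 and -0.38 for Bmp2. The points share the 3 EPO groups at the low end of Hamp. Smad7 was lowest in the EPO groups (6.30, 6.34 and 6.39 at 72 h, 24 h and 7 days) and highest in sham (6.83), and the vehicle and anakinra means between them, 6.50 to 6.70, differed by about their SDs of 0.08 to 0.24. Id2 was lowest in EPO at 72 h and 24 h (10.62 and 10.67), and EPO at 7 days (10.96) stood beside vehicle at 7 days (10.97). The genes whose group means were most like those of Smad7, among genes above the median level, were Rdh16 (r = 0.94), Cyp2d4 (0.92) and Ccnd1 (0.92). For Id2 they were Dhtkd1 (0.92), Csad (0.92) and Akr7a2 (0.90), and for Id3 they were Igfbp3 (0.90), Ahcy (0.88) and Dpt (0.87). The highest r was 0.88 for Id1, 0.91 for Smad6, 0.90 for Bmp2, 0.87 for Bmp6 and 0.90 for Tmprss6. Values of this size were thus not particular to Smad7, Id2 and Id3.

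Within a group, livers can differ in Hamp with no difference in treatment, and the slope of each gene on Hamp among arrays of the same group was fitted for 14505 genes. None of the 8 passed, and 0% of all genes did, while 2 of the 8 and 3.94% of all genes had an unadjusted p under 0.05. All 8 slopes were positive, from 0.03 for Smad6 to 0.14 for Bmp2, against 48.1% of all genes. Bmp2 changed by 0.14 log2 per log2 of Hamp (SE 0.05) and Smad7 by 0.07 (SE 0.04), both with a limma adjusted p = 1.00. Without the 2 arrays farthest from their group means in Hamp, vehicle replicate 5 at 72 h and EPO replicate 3 at 24 h, the 8 slopes ran from 0.0051 for Smad6 to 0.14 for Bmp2, with 0.10 for Smad7. Atoh8, a transcription factor known as a BMP-SMAD target in the liver, had the smallest p of all genes (slope 0.14, SE 0.04, limma adjusted p = 1.00). It read 8.81, 8.22, 8.0, 8.60 and 7.82 in vehicle livers at 72 h, where Hamp read 12.89, 12.78, 11.55, 13.16 and 9.67 in the same animals, so the liver with the least Hamp also had the least Atoh8. That array is among the 5 of lower SD over probes, called narrow below. In anakinra livers at 72 h, the liver with the least Hamp (10.72) had the middle Atoh8 value (8.42, in a range of 8.33 to 8.47). EPO minus vehicle for Atoh8 was 0.15, -0.05 and -0.27 at the 3 times, in order, and did not pass (limma adjusted p = 0.585, 0.833 and 0.926).

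**Figure D3:**
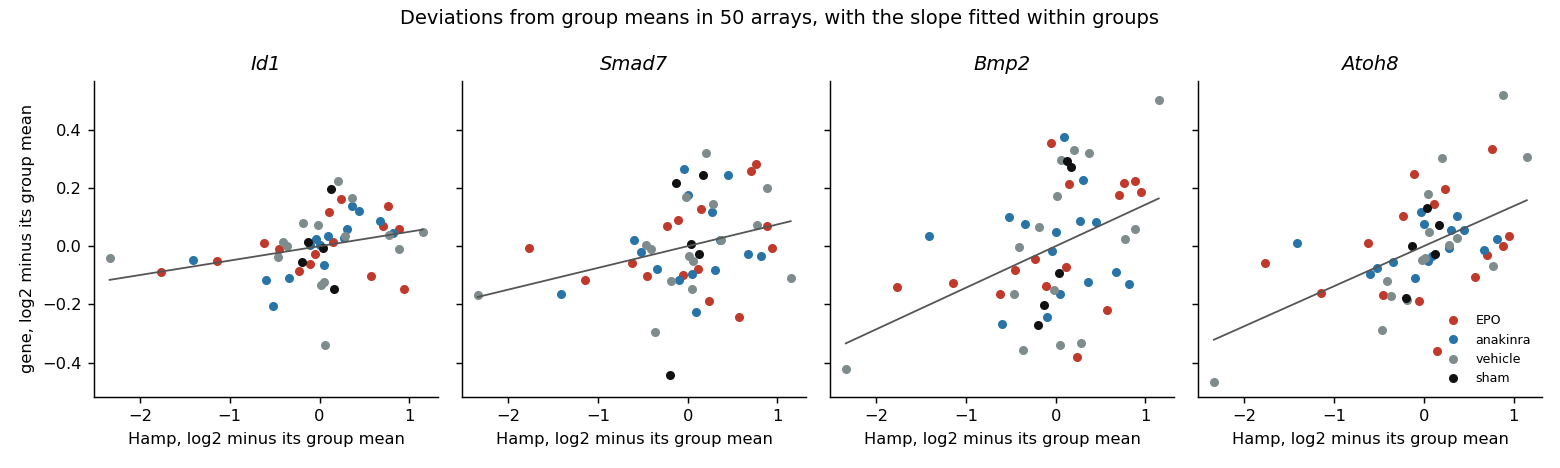
Each array's log2 value minus its group mean for Id1, Smad7, Bmp2 and Atoh8 (vertical axis) against the same for Hamp (horizontal axis) in 50 arrays, with the line fitted within groups. The slopes were 0.05, 0.07, 0.14 and 0.14 log2 per log2 of Hamp, and the vehicle liver at the far left is replicate 5 at 72 h.

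The rest of the pathway was read from lists of ligands, receptors, SMADs, inhibitors and other targets, 65 measured genes beside the 8. By limma 0 of the 65 passed in EPO minus vehicle at 24 h, 72 h, 7 days or in the mean of the 3 times, while 10, 11, 5 and 10 had an unadjusted p under 0.05, against 10.8%, 20%, 4.97% and 20.5% of all genes. Without EPO replicate 1 at 72 h the count was 8 at 72 h and 6 in the mean, where 1520 and 1040 of all 14506 genes passed. Without vehicle replicate 4 at 72 h it was 3 in both. In the mean the count of the 65 differed from 0 in 9 of the 30 fits that left out 1 array. At 72 h the 65 differences ran from -0.29 to 0.65, with a median of -0.05 against -0.03 for all genes. The type I receptors Bmpr1a (0.03) and Acvr1 (-0.05), the transducers Smad1 (-0.09), Smad5 (0.09) and Smad9 (-0.05), and the shared partner Smad4 (0.10) had small values at 72 h. The ligands Gdf2 (-0.09) and Bmp10 (0.09), the stress-induced ligand Gdf15 (-0.12) and the decoy receptor Bambi (-0.21) did not pass either. Id4, the fourth Id gene, was -0.26 at 72 h (SE 0.17, adjusted p = 0.375) and -0.21 in the mean (adjusted p = 0.213). Erfe, the gene of erythroferrone, was not analysed here.

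Against sham, a few of the 65 passed, where 0.434%, 3.46% and 2.86% of all genes did in order of time. At 24 h Inhbc, an activin subunit, was higher by 0.50 (SE 0.11, limma adjusted p = 0.0271). At 72 h Tgfbr3, a co-receptor, was higher by 0.50 (adjusted p = 0.00334), Junb, a transcription factor, by 0.73 (adjusted p = 0.0419), and Smad1 was lower, at -0.39 (adjusted p = 0.0330). At 7 days Hjv, the gene of hemojuvelin, was higher by 0.59 (SE 0.16, adjusted p = 0.0352). Tgfbr3 kept its call whichever array was left out. Inhbc lost it without EPO replicate 1, 3, 4 or 5 or sham replicates 2 to 5 (up to 0.104), and Junb without EPO replicate 2 or 5 or sham replicates 1 to 4 (up to 0.247). Smad1 lost it without EPO replicates 1 to 4 or sham replicate 1, 2, 3 or 5 (up to 0.111), and Hjv without EPO replicate 1 or 2 or sham replicate 1, 2, 3 or 5 (up to 0.1004). Inhbc, Tgfbr3 and Junb were named after their values were seen.

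Of the 10 measured genes of iron sensing around hepcidin, 1 passed in EPO minus vehicle at 72 h and at 7 days, where 2.72% and 0.365% of all genes passed. It was Tfrc, the transferrin receptor that takes up iron. Tfrc read 9.48, 9.71, 10.23, 10.03 and 9.25 in EPO livers at 72 h, against 8.45, 8.85, 9.56, 8.65 and 8.41 in vehicle livers. At 7 days it read 10.03, 9.83, 9.16, 9.77 and 9.51 in EPO livers, against 8.78, 8.71, 8.0, 8.02 and 8.70 in vehicle livers. The groups separated at 7 days and overlapped at 72 h through vehicle replicate 3. Tfrc rose by 0.96 at 72 h (SE 0.22, limma adjusted p = 0.00578) and 1.22 at 7 days (adjusted p = 0.000949). The 72 h call of Tfrc ended with array weights (limma adjusted p = 0.0942) and without the 5 narrow arrays (adjusted p = 0.0543). The sensor genes did not pass against vehicle at 72 h, with -0.01 for Hfe, 0.04 for Tfr2 and -0.18 for Hjv. In EPO minus sham 1, 3 and 2 of the 10 passed in order of time, all higher, against 0.434%, 3.46% and 2.86% of all genes in either direction. Tfr2, a second transferrin receptor that acts as a sensor, was higher than in sham by 0.40 at 24 h (SE 0.09, limma adjusted p = 0.0164) and by 0.33 at 72 h (adjusted p = 0.0153). The 24 h call ended without EPO replicate 1 or 5 or sham replicate 2 or 5 (up to 0.0754), and the 72 h call without EPO replicate 2 or 5 or sham replicate 5 (up to 0.0915). At 72 h Tfrc (0.92, adjusted p = 0.00724) and Slc40a1, the gene of ferroportin (0.41, adjusted p = 0.0318), passed too, and Tfrc passed with Hjv at 7 days (0.84, adjusted p = 0.0246). Slc40a1 lost its call without EPO replicate 2 or 5 or sham replicate 1, 3, 4 or 5 (up to 0.188), and Tfrc its 7 day call without EPO replicate 1 or sham replicate 1 or 5 (up to 0.0946). Hepcidin is also raised by interleukin-6 through STAT3. At 72 h, where 2.72% of all genes passed against vehicle, 2 of 21 measured genes of that arm rose. They were the receptor genes Osmr, by 0.94 (SE 0.25, adjusted p = 0.0248), and Lifr, by 0.57 (SE 0.11, adjusted p = 0.000628). Osmr lost its call without EPO replicate 2 or vehicle replicate 1, 2 or 3 at 72 h (up to 0.191), with a difference of 0.58 without EPO replicate 2. Stat3 (0.36, adjusted p = 0.150) and its target Socs3 (0.50, adjusted p = 0.187) did not pass against vehicle and did against sham (0.53, adjusted p = 0.0207, and 0.80, adjusted p = 0.0195). Against sham Stat3 lost its call without EPO replicate 2 or 5 or sham replicate 2 or 4 (up to 0.161), and Socs3 without EPO replicate 5 or sham replicate 2, 3 or 4 (up to 0.125). In EPO minus sham 3, 6 and 0 of the 21 passed in order of time, none lower, against 0.434%, 3.46% and 2.86% of all genes. In vehicle minus sham at 24 h, with no EPO, 4 of the 21 passed, all higher, against 0.827% of all genes. At 72 h 0% of all genes passed in vehicle minus sham.

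**Figure D4:**
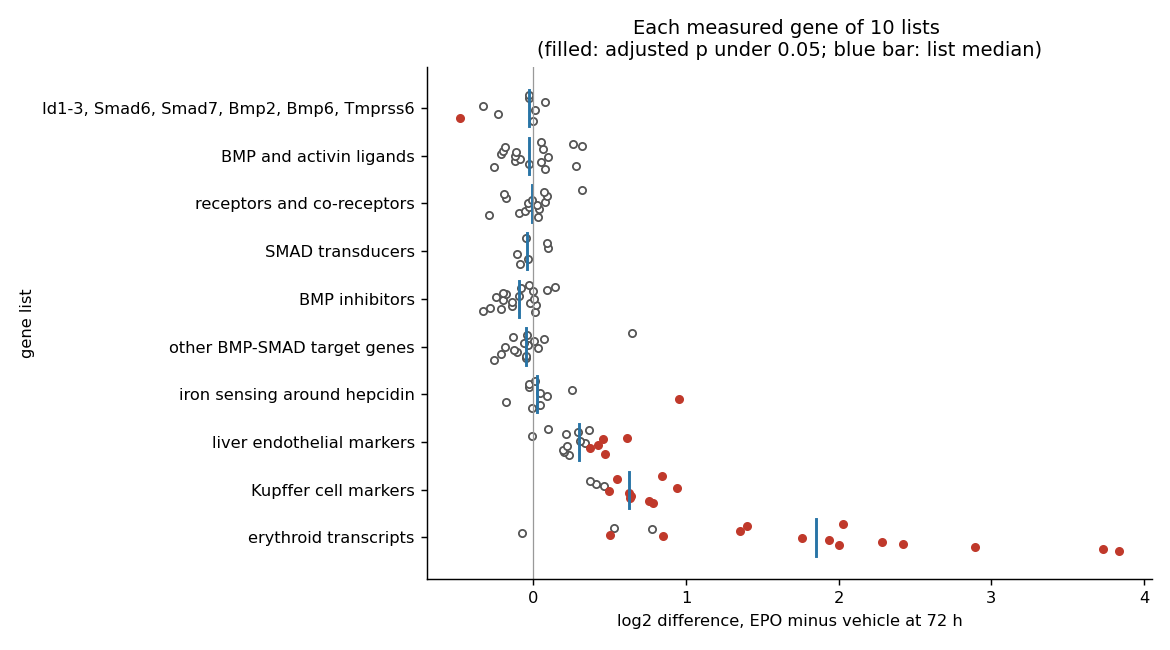
Difference in log2 RMA value, EPO minus vehicle at 72 h (horizontal axis), for every measured gene of 10 lists (rows); filled points had an adjusted p under 0.05, and blue bars are list medians. Among the rows above iron sensing only Id2, in the row of the 8 genes, is filled, Tfrc is filled in the iron sensing row, and the erythroid row reaches 3.84.

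Markers of other cells moved with the 72 h result, where 2.72% of all genes passed in EPO minus vehicle. Of 16 measured erythroid transcripts 13 rose in EPO minus vehicle at 72 h, and the mean level of the list per array was 8.75 to 10.26 in EPO livers, against 7.07 to 8.17 in vehicle livers. Kupffer cell markers rose in 9 of 12 (list means 9.31 to 9.56 in EPO livers, against 8.41 to 9.22 in vehicle livers). Of the endothelial markers 5 of 16 rose, such as Tie1 (0.42) and Oit3 (0.47), with list means of 9.17 to 9.47 in EPO livers, against 8.79 to 9.19 in vehicle livers. Neutrophil markers rose in 6 of 12, with list means of 6.36 to 7.36 in EPO livers, against 6.02 to 6.32 in vehicle livers. Hepatocyte markers passed in 0 of 13 and stellate cell markers in 1 of 13. The hepatocyte list mean was 12.66 to 12.98 in EPO livers, against 12.69 to 12.91 in vehicle livers, and at least 12.66 on every array. Leaving out 1 array gave 11 to 14 erythroid, 4 to 12 Kupffer, 2 to 7 endothelial and 5 to 10 neutrophil calls at 72 h. Over all 14506 genes it gave 205 to 1520 calls. The Kupffer count was 4 without EPO replicate 2 or vehicle replicate 1 or 2. The endothelial count was 2 without vehicle replicate 2, and 3 without EPO replicate 2 or 5 or vehicle replicate 1 or 3. The neutrophil count was 10 without EPO replicate 1. At 7 days 10 of 16 erythroid, 0 of 12 Kupffer, 0 of 16 endothelial and 0 of 12 neutrophil markers passed, against 0.365% of all genes. In bulk tissue fewer cells of a type and less RNA per cell cannot be told apart, and the part of these other cells in the Id2, Smad7 and Tfrc values was not tested.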

How the data were processed

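Liver RNA of 50 rats was measured on 50 arrays. The authors made log2 values with RMA in the oligo package, per the submitters' processing notes, and the deposited table holds 29214 probes; its version is not stated in the sources used here. RMA corrects background and quantile-normalises the arrays, which can mask a shift of all genes. Of the probes, 15310 carried 1 symbol in the platform annotation, 323 several and 13581 none. The highest-mean probe per gene gave 14506 genes. Array medians were 6.66 to 6.89, SDs 1.99 to 2.16, and 5 arrays of lower SD are called narrow. They were unevenly spread over the groups. They were vehicle replicate 3 at 24 h, replicates 2 and 5 at 72 h and replicate 3 at 7 days, and EPO replicate 3 at 7 days. The number of arrays limits the precision.

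Groups came from the labels. limma 3.58.1 in R 4.3.3 fitted 1 mean per group over 50 arrays (40 residual df), with Benjamini-Hochberg adjustment over all genes and calls at 0.05, and was tested on simulated data. A slope on Hamp was fitted within groups. No batch is given in the labels. Replicate numbers were not used to pair arrays. The members and lists were chosen with earlier results of these data known. The text names the 8 genes and Hamp, up to 4 called genes per other list, and 16 pathway genes whatever they showed. Alternatives were other scalings, filters, weights, fits and left-out arrays.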

Additional observations from a re-analysis of the deposited data

Results flagged for a closer look

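Among 90 sets of 5 arrays (9 genes in 10 groups), 4 had 1 array far from the other 4, by a test that chance meets in about 1 set of 20. Id3 read 7.85 in EPO replicate 4 at 72 h, where the others read 7.25 to 7.40. Id3 also read 8.27 in sham replicate 5, against 7.49 to 7.71 in the other sham livers. Smad7 read 6.56 in EPO replicate 2 at 72 h, against 6.18 to 6.29 in the others. Tmprss6 read 10.36 in anakinra replicate 2 at 72 h, against 10.61 to 10.71 in the others. The EPO minus vehicle difference of Hamp differed between times by the limma F test (adjusted p = 0.00120).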

How the results depend on the processing

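No result of the 8 genes changed sign under any alternative while called. The counts of genes called were the ones that moved, and the cause was not tested. In some alternatives fewer arrays or genes entered. In EPO minus vehicle at 72 h the count of 1 became 0 with array weights, when just the compared groups were fitted, with arrays centred on their median and with all probes tested. In EPO minus sham at 24 h the count of 1 became 2 with array weights, and 0 when just the compared groups were fitted, with arrays centred, with or without scaling, and among genes above the median level, which drops Smad7 and Id1. In EPO minus sham at 72 h the count of 2 became 1 with just the compared groups and above the median level, and at 7 days the count of 1 became 0 above the median level. In EPO minus anakinra at 72 h it became 0 with just the compared groups (Id2, adjusted p = 0.0607). In the mean of 3 times the count of 2 became 0 with array weights, without the 5 narrow arrays and with median centring, and 1 with centring and scaling, above the median level and with all probes.

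Leaving out 1 array gave 0 to 1 in EPO minus vehicle at 72 h, 0 to 1, 1 to 2 and 0 to 1 in EPO minus sham at 24 h, 72 h and 7 days, 0 to 1 in vehicle minus sham at 24 h, and 0 to 2 in the mean of 3 times. The number of all genes called in EPO minus vehicle was 395 at 72 h, with 53 when just these groups were fitted, 205 without vehicle replicate 2 and 1520 without EPO replicate 1. In the mean of 3 times it was 350 (166 to 1040), and in EPO minus sham 63 (18 to 404), 502 (279 to 1011) and 415 (147 to 875) at 24 h, 72 h and 7 days. In EPO minus vehicle at 72 h, Kupffer and endothelial marker calls became 0 and neutrophil calls 3 with just these groups, and the calls of Tfrc (0.0973), Lifr (0.0906) and Osmr (0.392) ended. The replicate number as a block moved no count of the 8 genes, with 1 called in EPO minus vehicle at 72 h (Id2, adjusted p = 0.0301). No comparison had all 5 same-numbered pairs correlated over 0.1. The number was 4 of 5 in EPO minus vehicle at 7 days (r from -0.20 to 0.62) and in anakinra minus vehicle at 24 h (-0.18 to 0.37).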

Other observations

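At 24 h Hamp already read 11.77, 10.56, 9.24, 11.89 and 11.58 in EPO livers, against 13.02, 12.63, 13.09, 12.45 and 12.87 in vehicle livers. The groups did not overlap, with an exact permutation p = 0.00794, while the limma adjusted p was 0.189 over all genes, of which 0.0276% passed, and 0.0230 with array weights. Against sham Hamp passed at 24 h (-1.90, adjusted p = 0.0279), and it did not without EPO replicate 3 (adjusted p = 0.190), among others. The lowest Hamp values without EPO were in 2 livers, vehicle replicate 5 (9.67) and anakinra replicate 4 (10.72) at 72 h. Their Smad7 values, 6.46 and 6.39, were the lowest of their groups, and their Id2 values, 11.07 and 10.95, were in the middle and the lowest. The vehicle array is among the 5 narrow arrays. On it Id1 (6.62), Bmp2 (7.48), Bmp6 (7.52), Tmprss6 (10.33) and Atoh8 (7.82) were also the lowest of the group, and Id3 and Smad6 were not. In the anakinra liver Bmp6 (7.94) was the highest of its group, and Id1, Id3, Smad6, Bmp2, Tmprss6 and Atoh8 were neither lowest nor highest. Vehicle replicate 3 (11.55) and anakinra replicate 1 (11.61) at 72 h also had Hamp within the range of the EPO livers at 24 h. Their Smad7 values, 6.63 and 6.53, were not the lowest of their groups. Id2 read 11.01 in that vehicle liver, not the lowest of its group, and 11.44 in that anakinra liver, the highest. All these livers were picked after their Hamp values were seen, and no test was made on them.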
